A study of Mus musculus with 7 samples.

Results

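Keratins, claudins and regulators of the thymic epithelium were followed through RNA of thymus cell suspensions from wild type and Ikaros mutant mice. The set holds 10 genes taken by symbol, and all 10 were found among the 16734 genes listed. They are the keratin genes Krt18, Krt8, Krt5 and Krt14, the claudin genes Cldn3 and Cldn4, the transcriptional regulators Foxn1 and Aire, the chemokine gene Ccl25 and the adhesion gene Epcam. Messenger RNA was sequenced from strained cell suspensions of the thymus of 4 week old mice, and each level is an RPKM, that is reads scaled to the length of the transcript and to the size of the library. There were 3 wild type C57BL/6 libraries (replicates 1, 2A and 2B) and 2 libraries (replicates 1 and 2) of each mutant, homozygous for Ikaros lacking zinc finger 1 (ZnF1-/-) or zinc finger 4 (ZnF4-/-). Ikaros, encoded by Ikzf1, is a DNA-binding regulator of lymphoid development. The set was selected on the RPKM of Krt18 and Cldn4 in ZnF4-/- against wild type, which were known to differ when it was drawn up. The comparisons of the members with ZnF4-/- are therefore descriptions, printed without a p value. Where their calls at the threshold are given below, those calls support nothing.

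The thymic epithelium is the stromal frame in which T cells mature. Foxn1 is the transcription factor needed for its development, Ccl25 is a chemokine by which it attracts precursors, and Aire drives the display of tissue-restricted antigens in its medulla. Keratins form filaments from pairs of a type I and a type II chain, and Krt18 and Krt8 are such partners in simple epithelia and in the thymic cortex. Krt14 and Krt5 are partners in the basal epithelia and in the medulla. Claudins seal tight junctions, and Cldn3 and Cldn4 mark medullary cells and their precursors. Cldn4 has also been described on double-positive mouse thymocytes, and Epcam, a pan-epithelial adhesion protein, is found on mouse thymocytes at a low level.

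Krt18 and Krt8 are neighbours on chromosome 15, as Cldn4 and Cldn3 are on chromosome 5, and within each pair the levels differed widely. The windows from 250 bases before to 50 bases after the transcript start are shown for both pairs because the first gene of each was high in ZnF4-/- and its neighbour was near 0. The sequences are those of RefSeq (GRCm38.p6), which matched all 10 members, and each of the 4 occurs once, letter for letter, in mm9. Krt18 lies at chr15:101858397-101858696 (plus strand), Krt8 at chr15:101834724-101835023 (minus strand), Cldn4 at chr5:135422755-135423054 (minus strand) and Cldn3 at chr5:135461834-135462133 (plus strand), all in mm9. Capitals mark GGGAA, the core of the Ikaros recognition sequence, or its complement TTCCC.
Krt18: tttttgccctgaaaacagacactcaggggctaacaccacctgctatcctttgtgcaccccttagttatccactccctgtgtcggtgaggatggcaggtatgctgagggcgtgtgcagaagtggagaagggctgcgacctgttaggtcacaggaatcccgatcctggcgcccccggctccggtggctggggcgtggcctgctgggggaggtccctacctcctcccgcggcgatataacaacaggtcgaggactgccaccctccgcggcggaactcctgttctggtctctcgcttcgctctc
Krt8: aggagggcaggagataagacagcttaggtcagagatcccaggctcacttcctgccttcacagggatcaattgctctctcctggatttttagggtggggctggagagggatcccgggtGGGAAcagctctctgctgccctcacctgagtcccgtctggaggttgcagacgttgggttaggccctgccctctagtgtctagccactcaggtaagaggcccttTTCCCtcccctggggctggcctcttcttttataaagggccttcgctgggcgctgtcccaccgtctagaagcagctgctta
Cldn4: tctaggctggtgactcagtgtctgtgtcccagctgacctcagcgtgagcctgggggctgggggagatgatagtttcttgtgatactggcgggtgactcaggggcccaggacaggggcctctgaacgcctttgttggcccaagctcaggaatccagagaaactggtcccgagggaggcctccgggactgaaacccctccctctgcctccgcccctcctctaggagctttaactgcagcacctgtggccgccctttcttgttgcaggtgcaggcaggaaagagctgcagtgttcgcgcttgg
Cldn3: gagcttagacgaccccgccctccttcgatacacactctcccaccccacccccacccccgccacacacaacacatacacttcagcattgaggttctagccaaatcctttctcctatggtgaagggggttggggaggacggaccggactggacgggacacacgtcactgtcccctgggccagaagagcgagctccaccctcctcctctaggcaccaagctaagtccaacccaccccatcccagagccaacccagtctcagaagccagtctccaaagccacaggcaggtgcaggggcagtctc

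The letters GGGAA were found on either strand in 62.7% of 32851 promoter windows of this length. The windows of Krt18, Cldn4 and Cldn3 held 0, and that of Krt8 held 2, with first bases at -133 and -30 from the start. Single matches stood in the windows of Aire, Foxn1, Krt14 and Epcam. A match in such a window is a string of letters and not a bound site.

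The libraries were read in 2 ways, replicate 1 of each group with 76 bp reads and the others with 50 bp reads on another instrument. Sex followed the same split, since Xist ranged from 90.6 to 109 RPKM with 76 bp reads and did not exceed 0.03 RPKM with 50 bp reads. Depth was estimated for the 76 bp libraries, from the steps that single reads leave in low values, at 20150000 reads in wild type, 14300000 in ZnF1-/- and 6320000 in ZnF4-/-. That of the 50 bp libraries is unknown. Such steps held 36.3% to 55.2% of the low values, where chance gives 12.2% to 13.1%, so read numbers given here are best fits. Ikzf1 was at 142 to 175 RPKM in wild type, 183 and 194 RPKM in ZnF1-/- and 238 and 257 RPKM in ZnF4-/-, a whole-gene level that leaves the deleted finger itself unchecked. Thymocyte genes such as Cd3e, Cd4, Cd8a and Rag1 summed to 4810 RPKM in wild type, 5160 RPKM in ZnF1-/- and 4390 RPKM in ZnF4-/- with 76 bp reads, and to 6180 and 6360, 6030 and 5150 RPKM with 50 bp reads. The ZnF4-/- sum was thus below wild type at both read lengths, and the median log2 fold change of the list was -0.31. Not every gene was lower. Cd3e was at 486.66 RPKM in ZnF4-/- and 354.72 RPKM in wild type with 76 bp reads. With 50 bp reads it was at 437.82 RPKM against 438.88 and 425.84 RPKM. Cd3d, Cd3g and Ptcra were also higher in ZnF4-/- with 76 bp reads, and the other genes of the list were lower. Of the 12 thymocyte genes 0 were called by limma (0 at an unadjusted p under 0.05 in ZnF1-/- and 1 in ZnF4-/-), and with the replicate number as a block Cd8a fell by 0.51 log2 units in ZnF4-/- (adjusted p = 0.0479 by limma).

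In the wild type thymus suspensions Cldn4 was the highest of the 10 genes, at 9.54 ± 3.15 RPKM (SD, n = 3). Epcam followed at 2.44 ± 0.716 RPKM and Ccl25 at 2.33 ± 0.557 RPKM, and these neighbours in the order did not differ beyond their spread. Krt18 was at 0.637 ± 0.150 RPKM and Aire at 0.210 ± 0.0300 RPKM. Krt8 (0.117 ± 0.134 RPKM) and Krt5 (0.0867 ± 0.0153 RPKM) came next and overlapped. Cldn3 had a mean of 0.0200, Foxn1 of 0.0133 and Krt14 of 0.00667 RPKM. The label of thymic epithelium was thus carried by few reads, since the defining genes Foxn1 and Krt14 were at or near 0 in each library. By wild type mean Cldn4 stood above 68.1% of the genes listed, Epcam above 46.2%, Krt18 above 34.9% and Foxn1 above 9.6%.

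**Figure D1:**
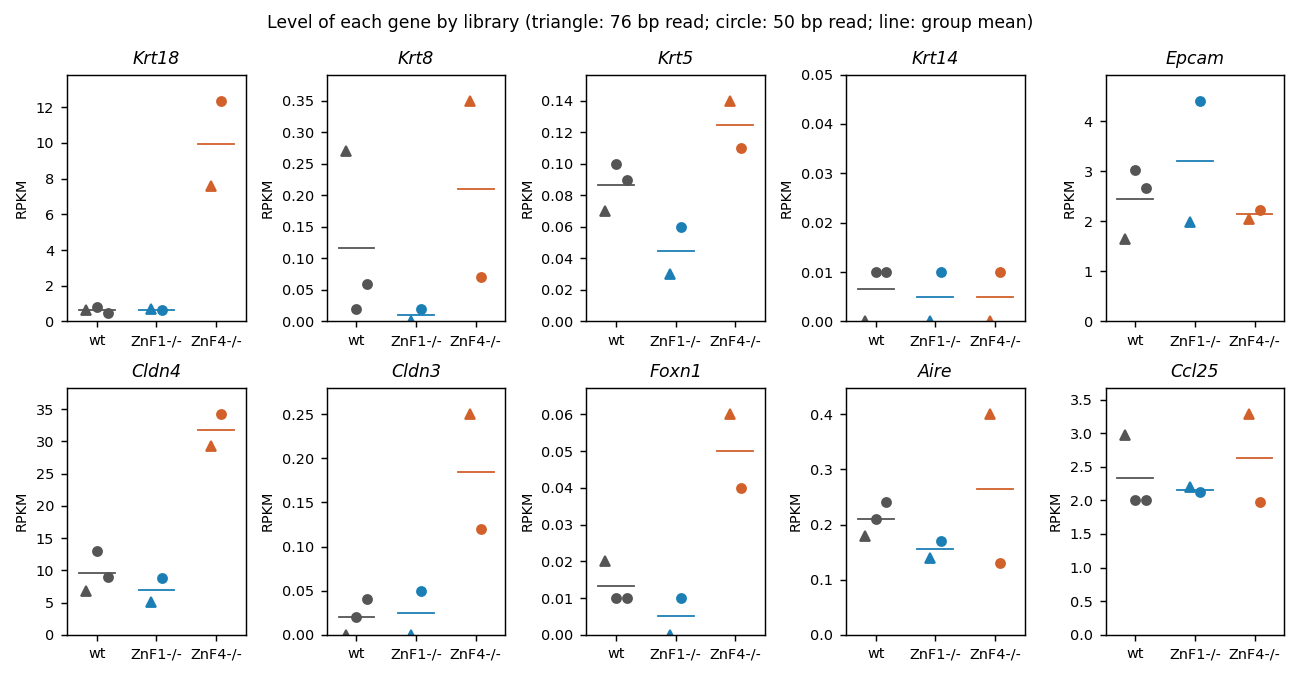
RPKM of the 10 genes (vertical axes, each with its own scale from 0) in the 7 libraries, grouped as wild type (wt), ZnF1-/- and ZnF4-/-; triangles are 76 bp and circles 50 bp libraries, and lines are group means. Krt18 and Cldn4 were above both other groups in each ZnF4-/- library, while Krt14 was at 0 to 0.01 RPKM and Foxn1 at 0.06 RPKM or less.

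Among the keratins, Krt18 was high in both ZnF4-/- libraries, where its partner Krt8 stayed under 1 RPKM. Krt18 (chromosome 15, 101858647 to 101862457, plus strand, mm9), a type I chain, was at 0.63, 0.79 and 0.49 RPKM in wild type replicates 1, 2A and 2B and at 0.69 and 0.62 RPKM in ZnF1-/- replicates 1 and 2. In ZnF4-/- it was at 7.58 and 12.35 RPKM. Both ZnF4-/- libraries lay above all others, and wild type and ZnF1-/- overlapped. The mean of ZnF4-/- was 15.7 times that of wild type, and the log2 difference of RPKM + 0.5 was 3.17 ± 0.24 (SE). Within the 76 bp libraries Krt18 was 12.0 times higher in ZnF4-/- than in wild type, and within the 50 bp libraries 19.3 times. By the estimated depth, the 76 bp values stand for about 18 reads in wild type, 14 in ZnF1-/- and 67 in ZnF4-/-. In ZnF1-/- Krt18 did not pass against wild type (log2 fold change 0.03 ± 0.24, adjusted p = 1.00 by limma).

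Krt8 (chromosome 15, 101827142 to 101834773, minus strand), the type II partner, ends 23873 bases before Krt18 begins. It was at 0.27, 0.02 and 0.06 RPKM in wild type, at 0 and 0.02 RPKM in ZnF1-/- and at 0.35 and 0.07 RPKM in ZnF4-/-. The values split by read length in wild type and ZnF4-/-, with the 76 bp library the higher, and the groups overlapped. The 0.35 RPKM of ZnF4-/- replicate 1 stands for about 4 reads and the 0.27 RPKM of wild type replicate 1 for about 10. Per unit length Krt18 exceeded Krt8 by 2.33, 39.5 and 8.17 times in wild type replicates 1, 2A and 2B and by 21.7 and 176 times in ZnF4-/- replicates 1 and 2. Krt8 has 1 other locus in mm9 that aligns to its transcript at 97.9% identity and Krt18 has 1 at 90.3%, so reads of the first in particular could have been split between copies.

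Krt5 (chromosome 15, 101537501 to 101543322) and Krt14 (chromosome 11, 100064476 to 100068862), the basal pair, were near the floor. Krt5 was at 0.07 to 0.10 RPKM in wild type, 0.03 and 0.06 RPKM in ZnF1-/- and 0.14 and 0.11 RPKM in ZnF4-/-. Its 3 groups did not overlap, but the 76 bp values of wild type, ZnF1-/- and ZnF4-/- stand for about 3, 1 and 2 reads. Krt14 was listed at 0 in the 3 libraries of 76 bp and at 0.01 RPKM in the 4 of 50 bp. A count of 0 in ZnF4-/- replicate 1 allows up to 3 reads, or 0.285 RPKM.

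Of the claudins, Cldn4 was high in ZnF4-/- and its neighbour Cldn3 was at 0.25 RPKM or less. Cldn4 (chromosome 5, 135420996 to 135422804, minus strand) was at 6.73, 12.95 and 8.94 RPKM in wild type replicates 1, 2A and 2B, at 5.10 and 8.81 RPKM in ZnF1-/- and at 29.31 and 34.21 RPKM in ZnF4-/-. Both ZnF4-/- libraries were above the other 5, among which wild type and ZnF1-/- overlapped. The ratio of the ZnF4-/- mean to that of wild type was 3.33, and the log2 difference was 1.73 ± 0.31 (SE). Cldn4 was 4.36 times higher within the 76 bp libraries, where the values stand for about 336 reads against 246, and 3.13 times within the 50 bp libraries. In ZnF1-/- it was at 0.758 and 0.805 times wild type within the same libraries and did not pass (log2 fold change -0.43 ± 0.31, adjusted p = 1.00 by limma).

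Cldn3 (chromosome 5, 135462084 to 135463342, plus strand) begins 39279 bases beyond the end of Cldn4, and its exons overlap those of the non-coding Wbscr25. It was at 0, 0.02 and 0.04 RPKM in wild type, at 0 and 0.05 RPKM in ZnF1-/- and at 0.25 and 0.12 RPKM in ZnF4-/-. Both ZnF4-/- values were the highest of the 7, at a level where 0.25 RPKM stands for about 2 reads. A count of 0 in wild type replicate 1 allows up to 0.118 RPKM.

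Both regulators were at 0.40 RPKM or less in each library, under the level at which genes were tested. Foxn1 (chromosome 11, 78171079 to 78200060) was at 0.02, 0.01 and 0.01 RPKM in wild type, at 0 and 0.01 RPKM in ZnF1-/- and at 0.06 and 0.04 RPKM in ZnF4-/-. Its ZnF4-/- values were above the rest, and 0.06 RPKM in replicate 1 stands for about 1 read. Aire (chromosome 10, 77492767 to 77506355), whose exons overlap those of Dnmt3l, was at 0.18, 0.21 and 0.24 RPKM in wild type, 0.14 and 0.17 RPKM in ZnF1-/- and 0.40 and 0.13 RPKM in ZnF4-/-. The ZnF4-/- libraries lay on either side of wild type, and those of ZnF1-/- were just below it.

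Ccl25 and Epcam, both high enough to be tested, overlapped wild type in ZnF4-/-. Epcam (chromosome 17, 88035319 to 88050446) was at 1.64, 3.02 and 2.66 RPKM in wild type, at 1.99 and 4.41 RPKM in ZnF1-/- and at 2.05 and 2.23 RPKM in ZnF4-/-. The groups overlapped, with the log2 difference at -0.12 ± 0.33 in ZnF4-/- and at 0.28 ± 0.33 in ZnF1-/- (adjusted p = 1.00 by limma). Ccl25 was at 2.97, 2.00 and 2.01 RPKM in wild type, 2.20 and 2.12 RPKM in ZnF1-/- and 3.28 and 1.98 RPKM in ZnF4-/-. Its log2 difference was 0.13 ± 0.24 in ZnF4-/- and -0.07 ± 0.24 in ZnF1-/- (adjusted p = 1.00 by limma). The row for Ccl25 rests on a non-coding RefSeq record, and in mm9 the symbol covers 2 overlapping gene models (chromosome 8, 4325210 to 4360020 and 4325230 to 4348790). How far its value stands for the coding message was not tested.

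**Figure D2:**
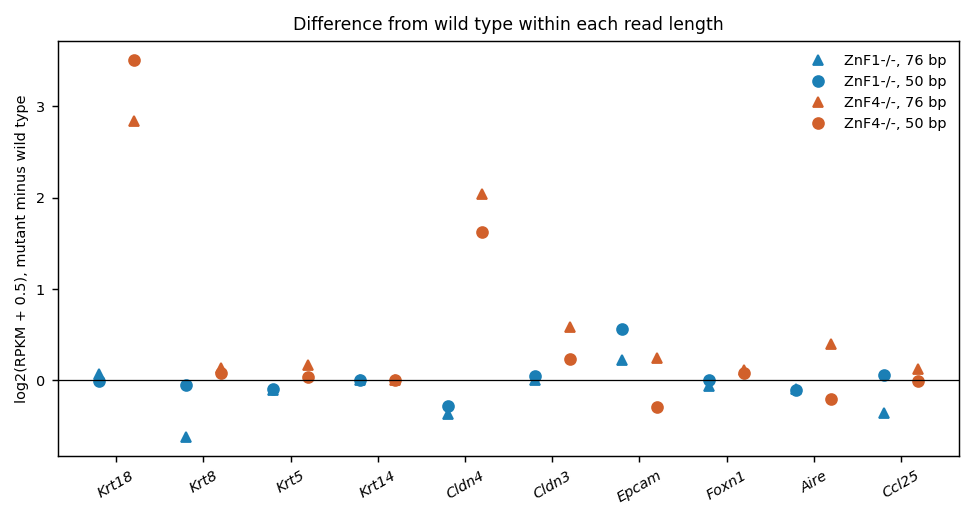
Difference of log2(RPKM + 0.5) between each mutant library and wild type of the same read length (vertical axis, log2 units), by gene; for 50 bp the mean of wild type 2A and 2B was used, and no error is drawn because each point is 1 mutant library. Krt18 (2.84 and 3.51) and Cldn4 (2.04 and 1.62) were far above 0 in both ZnF4-/- libraries, and the next highest value was 0.58, of Cldn3.

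Only 4 of the 10 members, Krt18, Cldn4, Ccl25 and Epcam, reached a mean of 1 RPKM over the 7 libraries and entered the fit across 10498 genes. Krt18 did so through its level in ZnF4-/-. Of these 4, Krt18 and Cldn4 were called in ZnF4-/- against wild type at an adjusted p under 0.05, where 2.54% of all tested genes were called, and the same pair was called in ZnF4-/- against ZnF1-/-, where 2.34% were. The 2 comparisons share the ZnF4-/- libraries. The set was drawn up on this difference, so the count supports nothing. The median log2 fold change over all tested genes was -0.05 in ZnF4-/-. In ZnF1-/- 0 members were called by limma, 0 at an unadjusted p under 0.05 and 0 with the replicate number as a block, and 0.0857% of all tested genes were called. Those calls over all genes were 8 higher and 1 lower, and 12 higher and 5 lower after scaling the libraries to a common median. The call of Cldn4 in ZnF4-/- against wild type was lost without wild type replicate 2B (log2 difference 1.71), without ZnF4-/- replicate 1 (1.84) and without ZnF4-/- replicate 2 (1.62), while Krt18 kept its call.

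Over all listed genes, whatever their level, both ZnF4-/- libraries lay above the 3 wild type libraries for 16.2%. Krt18, Cldn4, Krt5, Cldn3 and Foxn1 were the 5 members of 10 with that order. Both ZnF1-/- libraries lay below wild type for 7.79% of genes and for the 2 members Krt5 and Aire. The 6 members under the filter summed to 0.54, 0.37 and 0.45 RPKM in wild type, 0.17 and 0.32 RPKM in ZnF1-/- and 1.20 and 0.48 RPKM in ZnF4-/-. In the 50 bp libraries their sum in ZnF4-/- was thus close to that of wild type. Within it Aire was below wild type (0.13 against 0.225 RPKM), and Krt8, Krt5, Cldn3 and Foxn1 were above the wild type mean. Krt18 was at 12.35 RPKM in that same ZnF4-/- library. Whether Krt18 follows the low members was not tested, and levels near the floor cannot show it. The value of 1.20 belongs to the shallowest 76 bp library. In bulk RNA, fewer cells of a type and less RNA per cell cannot be told apart.

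The rest of both families was mostly silent. Of 25 keratin genes listed 24 had a mean under 1 RPKM, and Krt18 alone was tested. Krt10, the type I chain of differentiating epidermis, had the highest wild type mean of the keratins, though not beyond the spread of Krt18 and below it in replicate 1, at 0.56, 1.20 and 0.85 RPKM, and it was at 0.91 and 0.55 RPKM in ZnF4-/-. Of 15 claudin genes 2 were tested, Cldn4 and Cldn10. Cldn10 was at 2.33 ± 0.419 RPKM in wild type and 2.01 ± 0.191 RPKM in ZnF4-/- (SD, n = 3 and n = 2) and did not pass (adjusted p = 0.968 by limma). Cldn12, named after its values were seen, was at 0.37 to 0.57 RPKM in wild type, 0.49 and 0.75 RPKM in ZnF1-/- and 1.71 and 1.43 RPKM in ZnF4-/-. Its mean over all libraries was under the filter, and with every listed gene tested it rose by 1.13 ± 0.17 log2 units (adjusted p = 0.023 by limma, in a fit that called 3.56% of genes).

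**Figure D3:**
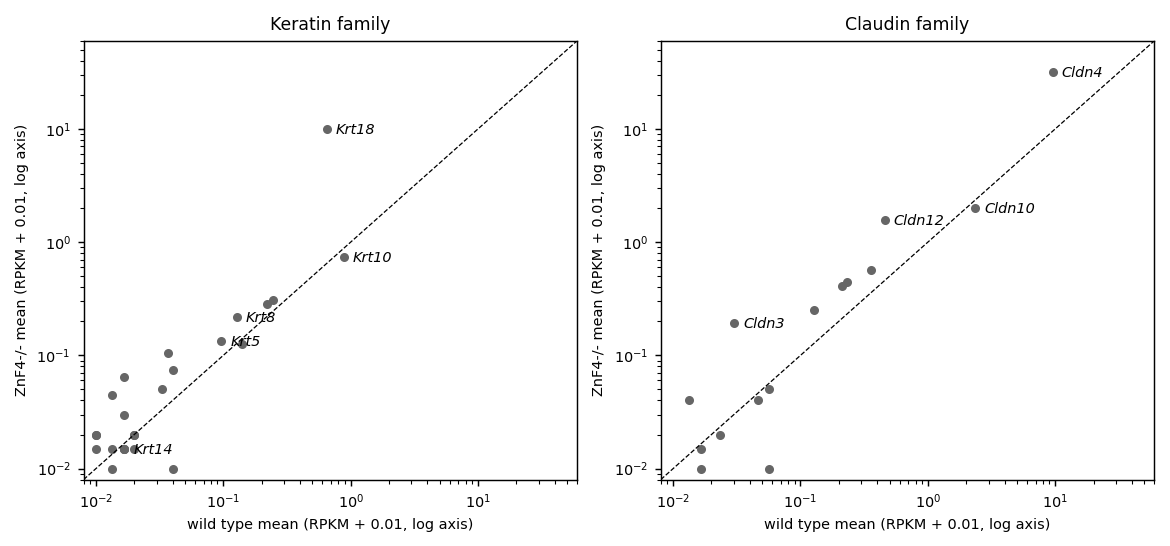
Mean level in wild type (horizontal) against ZnF4-/- (vertical), both as RPKM + 0.01 on log axes, for the 25 keratin and 15 claudin genes listed; points are genes and the dashed line marks equal levels. Krt18, Cldn4, Cldn12 and Cldn3 lie above the line, the last at 0.185 RPKM, and Krt8, Krt5 and Krt14 lie near it.

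Genes beside Krt18 and Cldn4 did not pass in ZnF4-/-. Eif4b, a translation initiation factor gene that starts 45557 bases beyond the start of Krt18, was at 67.1 ± 3.10 RPKM in wild type and 71.7 ± 3.10 RPKM in ZnF4-/- (log2 fold change 0.10 ± 0.14, adjusted p = 0.977 by limma). Wbscr27, between Cldn13 and Cldn4, was at 5.25 ± 0.676 and 6.08 ± 0.233 RPKM (0.20 ± 0.15, adjusted p = 0.872 by limma). Cldn13, another claudin gene of that cluster, was at 0 to 0.09 RPKM throughout.

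Other markers of thymic epithelium were mostly too low to test, and those tested were not called. Of 28 such genes 24 were listed, 20 of them with a mean under 1 RPKM, and of the 4 tested 0 were called in either mutant by limma, with medians of -0.02 in ZnF1-/- and 0.04 in ZnF4-/-. At an unadjusted p under 0.05 there were 0 in ZnF1-/- and 2 in ZnF4-/-, where 404 and 1063 of all 10498 tested genes had such a p, the background for each such count given here. With every listed gene tested, 1 of the 24 was called in ZnF4-/-, where Hoxa3, a homeobox gene of pharyngeal development, fell by 0.35 log2 units (adjusted p = 0.0421 by limma). That fit called 3.56% of all listed genes in ZnF4-/-. Hoxa3 was listed at 0 in both ZnF4-/- libraries and was at 0.10 to 0.18 RPKM in the other 5. For Foxn1, of similar length (2512 bases against 2548), 3 reads in ZnF4-/- replicate 1 stand for 0.189 RPKM. A 0 for Hoxa3 in that library thus does not exclude the level of the other 5, and the depth of ZnF4-/- replicate 2 is unknown. Psmb11, the thymoproteasome subunit of the cortex, was at 0.17, 0.04 and 0.02 RPKM in wild type and at 0.26 and 0.03 RPKM in ZnF4-/-. The thymic protease gene Prss16 was at 1.52, 0.45 and 0.25 RPKM in wild type and at 1.05 and 0.34 RPKM in ZnF4-/-. Like Krt8, both were highest in wild type and ZnF4-/- replicate 1, the 76 bp libraries. The 4 tested genes, Ctsl, Ly75, Relb and Spib, are also expressed by blood cells. Ctsl, the cathepsin L gene, was at 35.1 ± 6.93 RPKM in wild type and 18.8 ± 1.28 RPKM in ZnF4-/-, a log2 difference of -0.86 ± 0.22 (limma, adjusted p = 0.125, and 0.004 with the block). Relb, of the NF-kB family, was at 5.86 ± 1.04 against 3.91 ± 0.892 RPKM (0.54 ± 0.22, adjusted p = 0.463 by limma, and 0.022 with the block). Ly75, an endocytic receptor gene, and Spib, an Ets factor gene, were within 0.13 log2 units of wild type in ZnF4-/-.

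Genes of epithelial junctions and their regulators gave a mixed picture. All 30 were listed, 23 with a mean under 1 RPKM, and of the 7 tested 0 were called in ZnF1-/- or in ZnF4-/- by limma (2 and 3 at an unadjusted p under 0.05, medians 0.11 and 0.06). With the replicate block, which called 0.876% of all tested genes in ZnF1-/- and 8.22% in ZnF4-/-, 1 rose in ZnF1-/- and 1 rose and 1 fell in ZnF4-/-. Tjp3, the tight junction scaffold ZO-3, was at 3.01, 7.12 and 5.33 RPKM in wild type, at 8.65 and 12.78 RPKM in ZnF1-/- and at 9.50 and 12.07 RPKM in ZnF4-/-. Both mutants were above wild type in every library, and Tjp3 passed with the block (adjusted p = 0.0265 in ZnF1-/- and 0.00492 in ZnF4-/- by limma) and not without it (0.878 and 0.26). Jup, the plakoglobin gene, was at 24.0 ± 8.20 RPKM in wild type and 12.8 ± 0.785 RPKM in ZnF4-/- (adjusted p = 0.397, and 0.0419 with the block, by limma). Esrp2, an epithelial splicing regulator, was at 4.17 ± 1.43 RPKM in wild type, 1.48 ± 0.0212 RPKM in ZnF1-/- and 1.81 ± 0.445 RPKM in ZnF4-/- and did not pass (adjusted p = 0.499 and 0.224 by limma).

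With every listed gene tested, 4 junction genes under the filter rose in ZnF4-/- and 0 fell, and 3 of them are described, named after their values were seen. That fit called 3.56% of all listed genes in ZnF4-/-, 547 higher and 49 lower. Marveld2, the tricellulin of three-cell contacts, was at 0.11 to 0.25 RPKM in wild type and at 1.5 and 1.20 RPKM in ZnF4-/- (log2 fold change 1.47 ± 0.14, adjusted p = 0.00626 by limma). F11r, a junctional adhesion molecule gene, was at 0.345 against 0.130 RPKM and the desmoglein gene Dsg2 at 0.210 against 0.0133 RPKM, with adjusted p = 0.0115 and 0.0388 by limma. In ZnF1-/- 0 of the 30 were called in that fit, where 0.0179% of all listed genes were, and Marveld2 was at 0.48 and 0.33 RPKM. Cdh1, the E-cadherin gene of epithelia, was one of the tested junction genes, at 0.73 to 1.01 RPKM in wild type and at 1.5 and 1.11 RPKM in ZnF4-/-, and it did not pass (0.41 ± 0.20, adjusted p = 0.635 by limma).

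Several marker lists of other thymic cells summed higher in ZnF4-/-. Fibroblast and pericyte genes summed to 8.98 to 23.9 RPKM in wild type and to 8.12 and 23.6 RPKM in ZnF1-/-. In ZnF4-/- they summed to 20.0 and 37.1 RPKM, of which Fn1, the fibronectin gene, held 10.30 and 29.48 RPKM. Of 18 listed, 15 had a mean under 1 RPKM, and Pdgfra was at 0 in all 7 libraries. Col1a1 was at 0.04 to 0.12 RPKM in wild type and at 0.23 and 0.25 RPKM in ZnF4-/-. Col3a1 was at 0.03 to 0.06 RPKM and at 0.11 and 0.09 RPKM in the same order. Both ZnF4-/- libraries were thus above wild type, as for 16.2% of all listed genes. For Acta2 they were below it, at 0 and 0.12 against 0.14 to 0.22 RPKM. Of the 3 tested, 1 rose in ZnF4-/-: Pdgfrb, a receptor gene of pericytes, from 1.29 ± 0.340 to 4.42 ± 1.70 RPKM (1.43 ± 0.27, adjusted p = 0.0452, and 0.0639 with every gene tested, by limma). In ZnF1-/- Pdgfrb was at 2.30 and 3.17 RPKM, above the 1.06 to 1.68 RPKM of wild type, and was not called (0.86 ± 0.27, adjusted p = 0.854 by limma). ZnF4-/- against ZnF1-/- was not called either (0.57 ± 0.30, adjusted p = 0.721 by limma). At an unadjusted p under 0.05 there was 1 gene of the list in each mutant against wild type. Endothelial genes summed to 6.32 to 9.08 RPKM in wild type, 9.23 and 10.7 RPKM in ZnF1-/- and 14.4 and 13.2 RPKM in ZnF4-/-. Eng, the endoglin gene, held most of that sum. Cdh5 was at 0.04 to 0.16 RPKM in wild type, 0.52 and 0.39 RPKM in ZnF1-/- and 0.88 and 0.22 RPKM in ZnF4-/-. Plvap overlapped wild type in both mutants, and Tek was at 0 to 0.04 RPKM. Of 2 tested genes 0 were called by limma (1 at an unadjusted p under 0.05 in ZnF4-/-). Eng had adjusted p = 0.0611 in ZnF4-/-, and 0.00408 with the block, by limma.

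Macrophage and dendritic cell genes summed to 115 to 133 RPKM in wild type, 107 and 115 RPKM in ZnF1-/- and 184 and 202 RPKM in ZnF4-/-, so that the ZnF4-/- libraries were above the rest. Lyz2, the lysozyme gene, at 56.79 and 73.87 RPKM, and Cd74, the invariant chain gene, at 84.37 and 70.75 RPKM, held most of the sum in ZnF4-/-. Of 8 tested 0 were called by limma, 3 had an unadjusted p under 0.05 in ZnF4-/-, and with the block the complement genes C1qa and C1qc rose (adjusted p = 0.023 and 0.0479). Not every gene of the list was higher: Siglech, of plasmacytoid dendritic cells, was at 0.53 to 0.96 RPKM in wild type and at 0.16 and 0.06 RPKM in ZnF4-/-, Cd209a was at 0.22 to 0.36 and at 0.11 and 0.12 RPKM, and Cd68 and Xcr1 overlapped wild type. Erythrocyte genes summed to 19.5 to 55.4 RPKM in wild type, 19.1 and 52.4 RPKM in ZnF1-/- and 92.8 and 108 RPKM in ZnF4-/-. Of 4 tested 0 were called by limma and 2 had an unadjusted p under 0.05, the globin genes Hbb-b1 and Hbb-b2, which share reads. With the block both rose in ZnF4-/- (log2 fold change 1.80 each, adjusted p = 0.00902 and 0.00866 by limma). B cell genes summed to 19.6 to 24.5 RPKM in wild type, 27.0 and 36.4 RPKM in ZnF1-/- and 14.8 and 19.3 RPKM in ZnF4-/-, and 0 of 3 tested were called against wild type by limma (3 at an unadjusted p under 0.05 in ZnF1-/- and 1 in ZnF4-/-). With the block Cd79b rose and Cd79a fell in ZnF1-/- (adjusted p = 0.0186 and 0.0204 by limma), and Cd79b fell in ZnF4-/- (0.0253). The part of these cells in the levels of Krt18 and Cldn4 was not tested.

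**Figure D4:**
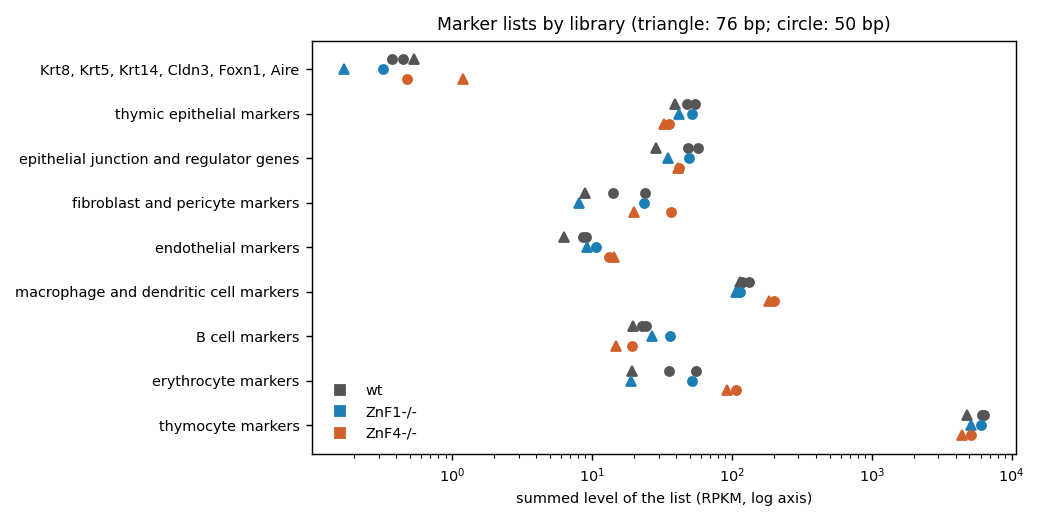
Summed RPKM of each marker list (horizontal log axis) in the 7 libraries, coloured by group; triangles are 76 bp and circles 50 bp libraries. The 6 low members at the top sum to 1.20 RPKM or less in each library, thymocyte genes to 4390 RPKM or more, and macrophage and erythrocyte genes are higher in ZnF4-/- than in the other groups.

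The genes whose profile over the 7 libraries was most like that of Krt18 were Dock1, Aldh1l1, F2, Fjx1 and Npnt, with a root mean square difference of 0.153 to 0.335 log2 units between centred profiles. Dock1, a guanine nucleotide exchange factor gene, was at 0.05 to 0.12 RPKM in wild type and ZnF1-/- and at 3.88 and 5.02 RPKM in ZnF4-/-. Aldh1l1, of folate metabolism, was at 4.05 and 6.14 RPKM in ZnF4-/-, the prothrombin gene F2 at 6.32 and 6.56 RPKM, Fjx1 at 4.55 and 5.17 RPKM, and Npnt, of the extracellular matrix, at 2.96 and 3.51 RPKM, each at 0.36 RPKM or less in the other 5 libraries. Nearest to Cldn4 were Cd9, Igf1r, Pck2, Cdr2l and Lrg1 (0.145 to 0.239 log2 units). The tetraspanin gene Cd9 was at 1.76, 2.62 and 2.18 RPKM in wild type, 0.97 and 2.39 RPKM in ZnF1-/- and 8.66 and 9.61 RPKM in ZnF4-/-. Igf1r, a growth factor receptor gene, was at 6.32 ± 0.981 RPKM in wild type and 20.4 ± 3.44 RPKM in ZnF4-/-. Nearest to Ccl25 were AI450353, Slc23a1, Rpl5, D3Ertd751e and Cmc1 (0.0610 to 0.0704 log2 units), which like it were highest in the 76 bp libraries of wild type and ZnF4-/-. The search covered tested genes, which leaves out most keratins, claudins and epithelial markers. The 5 genes nearest to Krt18, like Krt18 itself, reached the filter of 1 RPKM only through ZnF4-/-. Their likeness to Krt18 therefore follows in part from the filter and supports nothing.

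**Figure D5:**
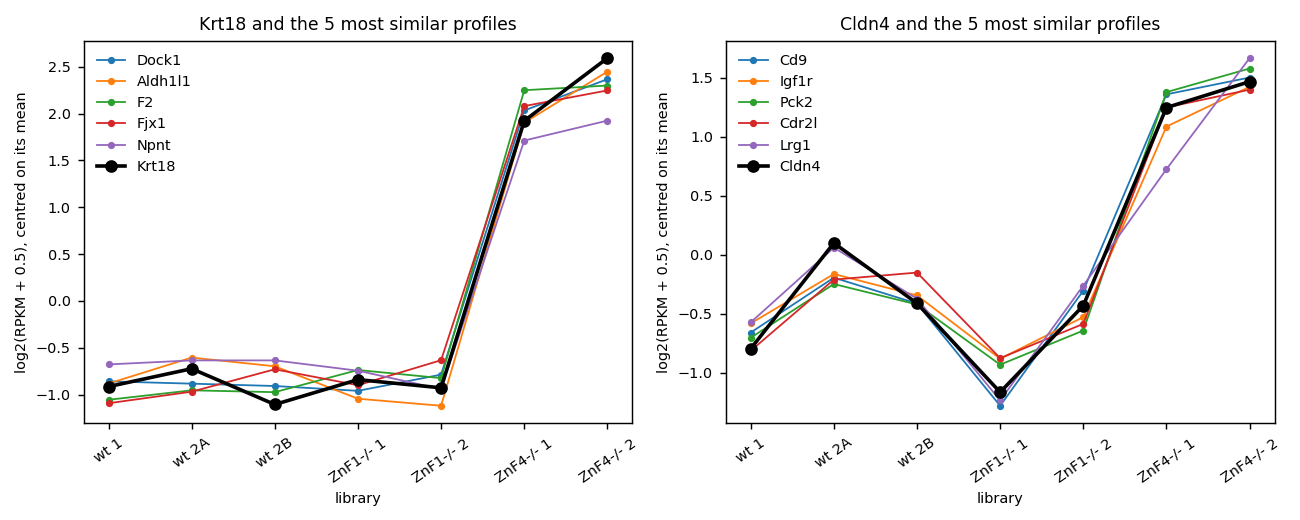
Log2(RPKM + 0.5), centred on its mean over the 7 libraries (vertical axis), for Krt18 (left) and Cldn4 (right) in black with the 5 genes most like each in colour; the lines join libraries only to guide the eye. Krt18 and its nearest genes are flat over wild type and ZnF1-/- and high in both ZnF4-/- libraries, while Cldn4 and its nearest genes are also lowest in ZnF1-/- replicate 1.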

How the data were processed

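The authors deposited RPKM values for 16734 genes in 7 libraries. Per the series design text and the submitters' processing notes, reads were aligned to mm9 (TopHat and bedtools are named), exonic reads were counted in SeqMonk with NCBI gene models, and 1 transcript per gene was kept. Program versions and strandedness are not given in the sources used here, so overlapping genes cannot be told apart. Columns without a sample numbered 0.

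Values were tested as log2(RPKM + 0.5) with limma 3.58.1 (trended prior, R 4.3.3), in 1 fit of the 3 groups over 10498 genes whose mean across libraries reached 1 RPKM. P values are two-sided, adjusted by Benjamini-Hochberg over those genes, with a threshold of 0.05. The added 0.5 understates the fold of low genes. The method was tested on simulated libraries first. The labels do not say that replicates were separate animals, so p measures the spread between these libraries. A label permutation of 3 libraries against 2 cannot go below 0.1 and was not run.

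Replicate numbers mark the read length per the labels' protocols, and deviations of same-numbered libraries correlated across genes at 0.489 to 0.737, so a fit with the number as a block was run beside the main fit. Members and gene lists were chosen with earlier results of these data known. Genes were named as follows: the members, list genes called against wild type or else the 4 highest, family members by the same rule, genes starting within 50 kb of Krt18 or Cldn4, and the 5 nearest profiles, among tested genes, to Krt18, Cldn4 and Ccl25 (the rule did not include Epcam). Exceptions are stated, and 2 genes are not reported here. Genomic positions are those of GENCODE M1 on mm9. Copies were sought by aligning transcripts to mm9 with minimap2, counting loci of at least 200 bases at 90% identity or more. Alternatives were the pseudocount, the filter, the block, library scaling, averaging wild type 2A with 2B, and leaving out each library.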

Additional observations from a re-analysis of the deposited data

Results flagged for a closer look

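For 3 values of the 4 tested members the mutant moved one way in the 76 bp libraries and the other way, against both wild type libraries, in the 50 bp libraries. The differences between read lengths were not tested, and read length, instrument and sex cannot be told apart here. Epcam in ZnF4-/- differed from wild type by 0.25 log2 units in the 76 bp libraries and by -0.29 in the 50 bp libraries. Ccl25 in ZnF1-/- differed by -0.36 and 0.06 log2 units in the same order. Ccl25 in ZnF4-/- differed by 0.12 and -0.01 log2 units. Aire, which was too low to be tested, did the same in ZnF4-/-, at 0.40 and -0.20 log2 units. Krt18 and Cldn4 were higher in ZnF4-/- within both read lengths.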

How the results depend on the processing

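Krt18 kept its direction in ZnF4-/- under every alternative run, with log2 differences of 2.71 to 3.75 against wild type and 2.69 to 3.70 against ZnF1-/-. The set was selected on the difference of Krt18 and Cldn4, and Krt18 passed the filter through ZnF4-/-. A call kept under an alternative therefore supports nothing. Cldn4 kept its direction, at 1.51 to 1.96 and 1.79 to 2.52, and its call was lost in some alternatives. The count of called members was then 1 in place of 2: against wild type with 2A and 2B as 1 library (1) and in 3 of the 7 fits without 1 library (range 1 to 2), and against ZnF1-/- in 4 of 7 (range 1 to 2). The cause was not tested. Differences that were not called in the main comparison changed sign in single fits without 1 library: Krt18 in ZnF1-/- was at -0.06 without wild type replicate 2B and at -0.01 without ZnF1-/- replicate 1 (highest 0.13), and Ccl25 in ZnF1-/- at 0.09 without wild type replicate 1 (lowest -0.15). Epcam was at -0.21 in ZnF1-/- without ZnF1-/- replicate 2 (highest 0.77), at 0.02 in ZnF4-/- without wild type replicate 2A (lowest -0.34) and at 0.08 in ZnF4-/- against ZnF1-/- without ZnF1-/- replicate 2 (lowest -0.90). Without ZnF4-/- replicate 1, Ccl25 in ZnF4-/- was at -0.17 against wild type (highest 0.44) and -0.10 against ZnF1-/- (highest 0.51).

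Over all genes the counts moved more. ZnF1-/- against wild type gave 9 calls, 3 with no filter, 92 with the replicate block, 17 after median scaling, 1 with 2A and 2B as 1 library and 1 to 10 without single libraries. ZnF4-/- against wild type gave 267, 596 with no filter, 863 with the block, 130 with 2A and 2B as 1 library and 44 to 253 without single libraries. ZnF4-/- against ZnF1-/- gave 246, 576 with no filter, 765 with the block and 90 to 318 without single libraries. The block, in which the number pairs the libraries, changed the call of no member. Where a mutant was left with 1 library, that library was assumed to vary like the other groups. Depth limits the 6 members under the filter, whose 76 bp values in ZnF4-/- stand for 0 to 5 reads.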

Other observations

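S100a8, a neutrophil gene held here in a list of antigens displayed under Aire, was at 296.76 RPKM in ZnF4-/- replicate 1 and at 37.04 to 76.35 RPKM in the other 6 libraries. Of the 11 genes of that list in the table, 2 were tested and 0 were called in either mutant by limma, with 0 at an unadjusted p under 0.05. The casein gene Csn2 was at 0 to 0.24 RPKM in wild type and at 0.14 and 0.43 RPKM in ZnF4-/-.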
